A study of Mus musculus with 6 samples.

Results

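The genes of MHC class I and class II antigen presentation were described in RNA sequencing of oesophageal squamous cell carcinomas from C57BL/6 mice. The set was defined by name. It holds 39 genes whose symbol starts with H2- and 12 genes that supply, trim, load or switch on the same molecules (B2m, Tap1, Tap2, Tapbp, Psmb8, Psmb9, Psmb10, Erap1, Nlrc5, Cd74, Ciita and Cd1d1). Names ending in -ps, H2-K2, and the neighbours H2-Ke6 and H2-Ke2, which are not MHC genes, were left out. This gave 51 genes of 41254 symbols. By role they were 2 classical class I heavy chains, 26 non-classical class I genes, 8 class I processing genes, 4 class II chains, 6 class II accessory genes, 2 class II pseudogenes, 2 regulators and the lipid-presenting Cd1d1. In GENCODE M21 (GRCm38, the assembly of mm10), 44 of them lay on chromosome 17. That annotation lists H2-Q3, counted here as non-classical, as a pseudogene. It lists H2-Bl, H2-Q5 and H2-T10, also counted as non-classical, as polymorphic pseudogenes.

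The study compared Ptpro+/+ mice (label WT) with Ptpro-/- mice (label Ptpro-KO), 3 tumours of each. Ptpro encodes a receptor-type tyrosine phosphatase. All 6 mice had drunk water with the DNA-damaging carcinogen 4NQO at a labelled 100 mg/mL from 6 weeks of age for 16 weeks. Tumours were taken up to 12 weeks later, at 34 weeks by the design text, although an age tag gives week 6, and mice that lost much weight were killed earlier. The sources used here do not say how the Ptpro allele was made, and untreated oesophagus was not analysed here. Whole tumours were sequenced, so fewer cells of a type and less RNA per cell cannot be told apart in any value below.

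Class I molecules are made by nearly all nucleated cells. A heavy chain pairs with beta-2-microglobulin, takes up a peptide cut by the proteasome and carried into the endoplasmic reticulum by the TAP transporter, and shows it to CD8 T cells and NK cells. Class II molecules are made mainly by dendritic cells, macrophages and B cells. Their alpha and beta chains assemble on the invariant chain Cd74, and H2-DM later exchanges its remnant for a peptide from the endosome, for display to CD4 T cells. Interferon-gamma raises both routes. NLRC5 is the transactivator of class I genes and CIITA that of class II genes, and each acts through protein complexes bound at short promoter boxes.

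The class I promoters are shown because the heavy chains moved together across the libraries, as described below. RefSeq promoters of GRCm38.p6, running from 250 bases before to 50 bases after a start site, were found for 37 of the 51 genes. There was no entry for H2-Ab1, H2-Bl, H2-Pa, H2-Pb, H2-Q1, H2-Q3, H2-Q5, H2-T10, H2-T24, Tap2, Nlrc5, Cd74, Ciita and Cd1d1. Capitals mark, in order, an NF-kB site (GGGATT, any base, CCC), a stretch of 10 letters like those of an interferon response element, and ATTGG (the Y box). Each motif was searched by itself on both strands, so matches of different motifs may overlap, and the first and second of these were added after the sequences had been seen. The windows lie at chr17:34000356-34000460 (minus strand), chr17:35379441-35379545 (plus) and chr17:35424675-35424778 (plus).
H2-K1: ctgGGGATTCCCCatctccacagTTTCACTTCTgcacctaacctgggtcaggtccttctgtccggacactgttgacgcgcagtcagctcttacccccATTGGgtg
H2-Q4: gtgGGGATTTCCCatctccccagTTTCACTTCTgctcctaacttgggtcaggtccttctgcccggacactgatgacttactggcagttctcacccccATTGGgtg
H2-Q6: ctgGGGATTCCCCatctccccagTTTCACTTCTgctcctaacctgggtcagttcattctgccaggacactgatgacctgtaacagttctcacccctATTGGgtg
H2-K1 and H2-Q4 were identical at 91 of 105 aligned positions, and H2-Q4 and H2-Q6 at 93 of 105. The same stretch of H2-D1 was identical to that of H2-K1 at 94 of 105 positions. The NF-kB letters were found in 4 of the 37 genes with a promoter entry (H2-K1, H2-D1, H2-Q4 and H2-Q6). Among 32851 mouse promoters of the same length, 0.265% held them. The second capital stretch was found, letter for letter, in 7 of 37, against 0.155% of all promoters. Both were added after these sequences had been seen and class I genes are near copies, so neither share is a test of enrichment.

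CIITA is known to act on class II promoters through an X-Y module, whose letters were searched here. Capitals mark ATTGG and, where it was present, GCAACNG, the core of the X box. The windows lie at chr17:34287862-34287916 (minus strand), chr17:34305763-34305817, chr17:34325530-34325584, chr17:34145114-34145168 and chr17:34238803-34238857 (all plus).
H2-Aa: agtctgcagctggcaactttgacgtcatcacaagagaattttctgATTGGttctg
H2-Eb1: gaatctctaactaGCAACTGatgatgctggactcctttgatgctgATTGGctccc
H2-Eb2: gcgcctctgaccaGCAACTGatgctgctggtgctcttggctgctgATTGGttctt
H2-DMb2: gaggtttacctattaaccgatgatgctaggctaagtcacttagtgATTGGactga
H2-Ob: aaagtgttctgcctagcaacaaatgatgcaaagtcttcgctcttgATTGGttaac
ATTGG occurred in 3 of 3 class II chain genes and 5 of 5 accessory genes with a promoter entry, against 37.4% of all promoters. H2-DMa had an entry with ATTGG (chr17:34125268-34125567) and another without it (chr17:34122582-34122881). The letters were not particular to class II, being found in 31 of 37 genes of the set. By role these included 2 of 2 classical, 17 of 20 non-classical and 4 of 7 processing genes of class I. GCAACNG followed within 45 bases by ATTGG was present in H2-Eb1 and H2-Eb2, with 25 bases between them in both, against 0.588% of all promoters. The search found no such pair in the H2-Aa, H2-DMb2 and H2-Ob promoters. It allowed no mismatch, and the H2-Aa and H2-Ob windows hold GCAAC upstream of ATTGG without the final G. A miss therefore does not show that the X box is absent. The general interferon response letters, TTTC and TTTC with any 2 bases between, were matched in 4 of 37 genes (B2m, Erap1, H2-T22 and H2-T23). They were matched in 3.44% of all promoters. The match in B2m, read on the opposite strand, lies in the window chr2:122147533-122147572.
B2m: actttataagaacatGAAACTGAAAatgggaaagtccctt

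The libraries held 25745240 to 39827467 reads on annotated transcripts, of which 0.144% to 0.415% fell on the 51 genes. Ptpro itself ran against the labels, with 174, 9 and 67 reads under the WT label and 1094, 1824 and 1921 under Ptpro-KO (log2 fold change 3.97, SE 0.85, edgeR adjusted p = 0.0617, and 4.02e-06 to 0.228 over the alternatives). Groups are therefore called by their labels throughout, and directions are those of the labels. Defining markers of squamous epithelium (Krt5, Krt14, Trp63 and Dsc3) were present in all 6 libraries, at summed levels of 18273 to 25088 CPM under the WT label and 7637 to 10238 under Ptpro-KO. CPM is the read count relative to the library size in megareads, with library sizes scaled by TMM. Summed macrophage markers (7 genes) ran from 75.7 to 318 CPM under WT and from 549 to 1053 under Ptpro-KO, with 0 of 7 at 0 in either group. Ptpro-KO replicate 2 held 774 CPM of the thyroid gene Tg, against at most 2.6 in the other libraries, and Ptpro-KO replicate 3 held 11608 CPM of 3 stomach genes. The part of these markers in the results below was not tested.

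In the comparison of labels, 37 of the 51 genes had enough reads to be tested, and 0 of them passed the adjusted threshold of 0.05 in edgeR's quasi-likelihood test in either direction. Over all 17664 genes tested, 1.81% passed as higher under the Ptpro-KO label and 2.29% as lower, 4.1% in either direction. At an unadjusted p under 0.05, 4 of the 37 were higher (Psmb10, H2-DMa, H2-DMb2 and Tapbp) and 0 lower, against 13.7% and 11.3% of all genes. With DESeq2, 1 of the 37 passed (Psmb10, higher), against 9.52% of all genes. The 3 values under Ptpro-KO all lay above the 3 under WT for 5 of the 37 (Psmb10, H2-DMa, H2-DMb1, H2-DMb2 and H2-M3), against 16.8% of all genes. All of these shares lay under the background. The fold change was positive for 36 of the 37, Nlrc5 being the exception, against 53.3% of all genes. Its median was 0.51 on the log2 scale against 0.03. Each other scaling of the counts also gave 36 of 37, against 52.4% (RLE) to 67.7% (library totals) of all genes. Most intervals included 0, so neither a change nor its absence was shown for those genes.

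**Figure D1:**
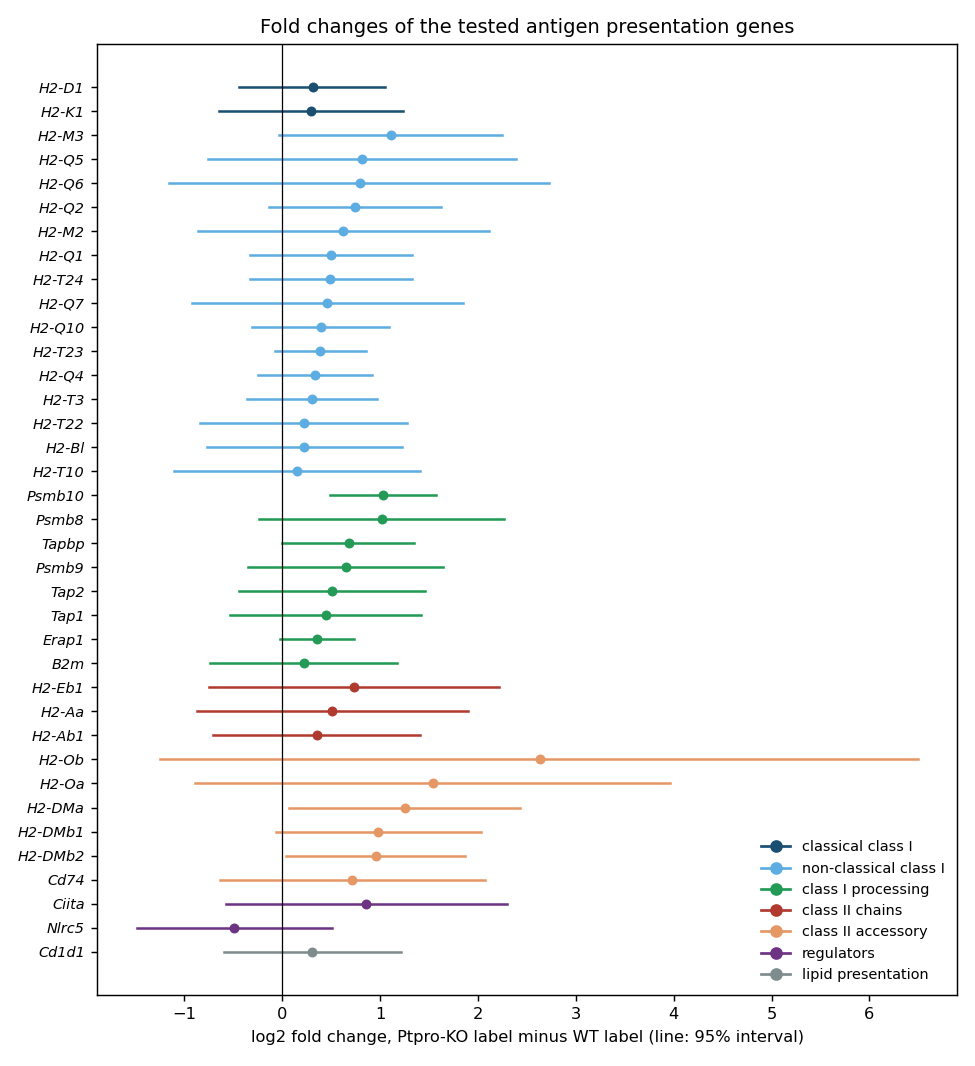
Fold changes of the 37 tested genes. The horizontal axis is the log2 fold change of the libraries labelled Ptpro-KO over those labelled WT (n = 3 each), points are edgeR estimates, lines are 95% intervals, and colours are gene groups. The points of 36 genes lie right of 0, and the intervals of Psmb10, H2-DMa and H2-DMb2 lie clear of it.

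The genes did not vary independently. WT replicate 2 had the lowest level of 33 of the 37 genes, against 24.7% of all genes. Ptpro-KO replicate 2 had the highest level of 23 of the 37, against 21% of all genes. Those 23 were both classical class I genes, 13 of 15 tested non-classical genes, 7 of 8 processing genes and Cd1d1. None of the 9 tested class II genes (0 of 3 chains, 0 of 6 accessory genes) was highest there. Markers of other tissues also differed between the libraries. Fibroblast markers (3 genes) were lowest in WT replicate 2 (161 CPM, against 241 and 372 in the other WT libraries) and highest in Ptpro-KO replicate 2 (1698, against 1015 and 1300). Skeletal muscle markers (2 genes) were at 5395, 50.4 and 3591 CPM under WT and 5159, 2340 and 52.6 under Ptpro-KO. Simple epithelium markers (3 genes) were at 50.7, 79.5 and 33.2 CPM under WT and 540, 1055 and 1039 under Ptpro-KO. The muscle and simple epithelium lists did not have their lowest sum in WT replicate 2 together with their highest in Ptpro-KO replicate 2. Squamous epithelium markers (4 genes) had the reverse order, highest in WT replicate 2 and lowest in Ptpro-KO replicate 2. They were at 18273, 25088 and 22155 CPM under WT and 10238, 7637 and 8302 under Ptpro-KO. None of these genes was at 0 in a whole group, and their part in the results was not tested. Without Ptpro-KO replicate 2, 29 of 38 tested genes had a positive fold change and their median was 0.35. Without WT replicate 2 it was 35 of 39, with a median of 0.31.

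Levels between genes were compared as RPKM, reads relative to transcript length and library total. By mean over the 6 libraries, B2m was the most abundant (514 RPKM), followed by the classical heavy chains H2-K1 (331) and H2-D1 (305). The invariant chain Cd74 came next (154), then the non-classical H2-Q4 (100), and the class II chains H2-Aa (83), H2-Ab1 (65.9) and H2-Eb1 (59.7). The order of neighbours was within the spread for most pairs: the ratio of H2-K1 to H2-D1 ran from 0.896 to 1.23 over the 6 libraries. The peptide-loading genes were lower, with Tapbp at 40.5, Tap1 at 22.2 and Tap2 at 9.12 RPKM. Of the 3 interferon-induced proteasome subunits, Psmb8 averaged 16.7, Psmb10 14.8 and Psmb9 5.36 RPKM.

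The classical heavy chains, which present peptides to CD8 T cells, overlapped between labels. In replicate order, H2-K1 (chr17:33996017-34000347) was at 609, 291 and 508 CPM under WT and at 393, 840 and 487 under Ptpro-KO. Its lowest and highest libraries were the pair numbered 2, and the other 4 lay between 393 and 609. H2-D1 (chr17:35262730-35267499) was at 478, 278 and 350 CPM under WT and at 358, 636 and 374 under Ptpro-KO, in the same arrangement. The log2 fold changes were 0.29 for H2-K1 (SE 0.38, 95% interval -0.65 to 1.23, adjusted p = 0.687) and 0.31 for H2-D1 (SE 0.31, interval -0.44 to 1.05, adjusted p = 0.583). Without Ptpro-KO replicate 2 both turned, to -0.10 and -0.02. B2m (chr2:122147686-122153083), the light chain of every class I molecule, followed the heavy chains at 573, 230 and 423 CPM under WT and 414, 656 and 355 under Ptpro-KO. Its log2 fold change was 0.22 (SE 0.39, adjusted p = 0.776), and it turned to -0.10 without Ptpro-KO replicate 2 and to -0.08 without WT replicate 2. The ratio of B2m to all class I heavy chains, in RPKM, ran from 0.488 to 0.653 under WT and from 0.503 to 0.647 under Ptpro-KO.

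**Figure D2:**
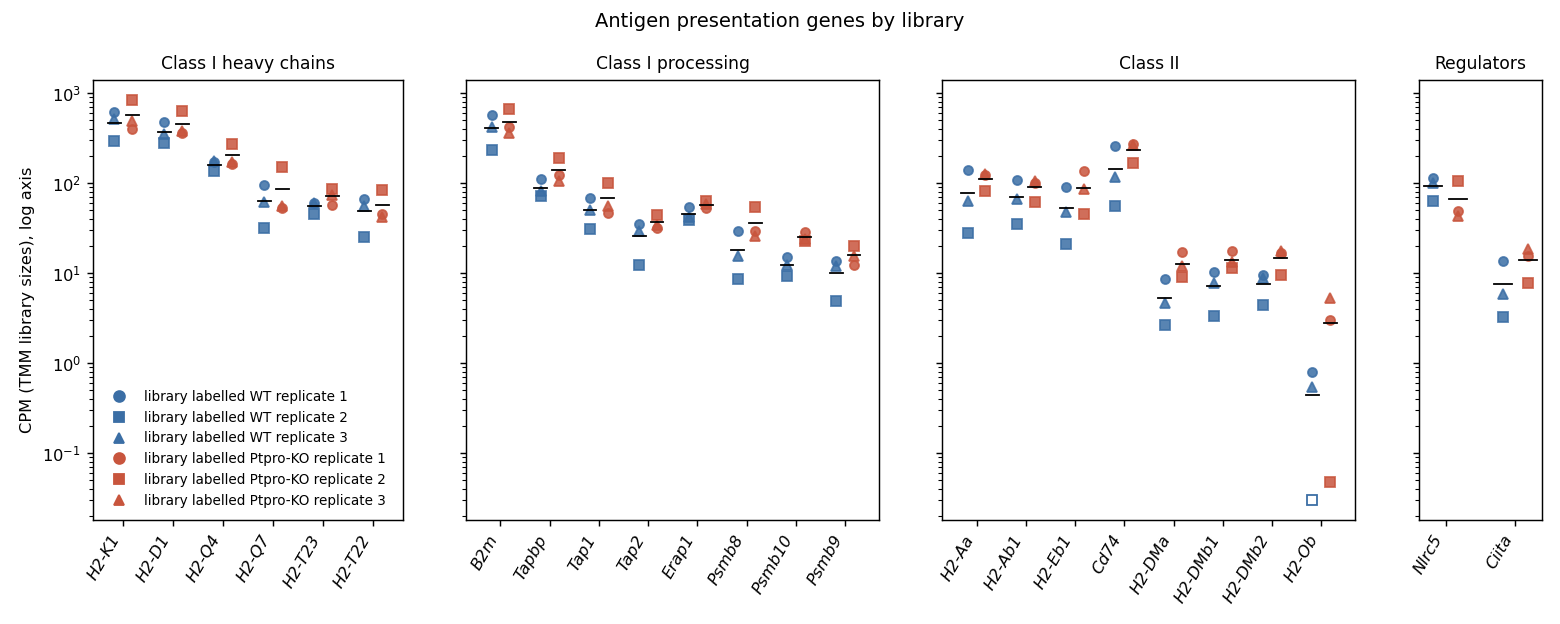
Levels of 24 antigen presentation genes in each library. The vertical axis is CPM on a log scale, each symbol is 1 library (blue for the WT label, red for Ptpro-KO, shape for the replicate number), and bars are group means. An open symbol marks 0 reads, drawn at the foot of the axis. Squares, the libraries numbered 2, are lowest under WT for the class I genes and highest under Ptpro-KO for all of them but Psmb10, whose groups stay apart.

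Among the 15 tested non-classical class I genes, fold changes ran from 0.15 (H2-T10) to 1.11 (H2-M3), with 0 called and a median of 0.46. H2-Q4, the most abundant, was at 170, 136 and 175 CPM under WT and 162, 274 and 169 under Ptpro-KO. The groups overlapped, with a single high library under Ptpro-KO. H2-T23 encodes Qa-1, the ligand of the NKG2A receptor of NK and T cells, and was at 60, 44.9 and 59.7 CPM against 57, 84.9 and 72.8 (log2 fold change 0.38, SE 0.19, adjusted p = 0.279). H2-Q7, a Qa-2 gene, was at 95, 31.2 and 60.8 CPM under WT and 52.4, 151 and 54.7 under Ptpro-KO, a spread of 4.84-fold over the libraries. H2-T22, whose product is bound by some gamma-delta T cells, was at 65.7, 25.3 and 56 CPM against 44.8, 83.7 and 42.1. The fold changes of H2-Q7 (0.46) and H2-T22 (0.22) turned to -0.23 and -0.18 without Ptpro-KO replicate 2. H2-M3, which presents N-formyl peptides of bacteria and mitochondria, was at 5.13, 1.67 and 4.45 CPM under WT and 7.58, 10.7 and 6.01 under Ptpro-KO. It was the only one of the 15 whose groups did not overlap (1.11, SE 0.46, adjusted p = 0.209), and it was named for that after its values were seen.

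Class I genes are near copies, and the sources used here do not say how reads that match several of them were counted. Of the 50-letter words in the transcripts of H2-K1, 8.79% also occur in transcripts of other genes, against 14.3% for H2-D1, 24.3% for H2-Q4, 40.2% for H2-Q7 and 48.1% for H2-T22. With 100-letter words the shares were 0%, 4.64%, 2.66%, 21.9% and 15.3%, and the read length is not known here. Values of single genes in the Q and T groups are therefore uncertain. In the deposited FPKM table, the log2 difference of H2-Q7 was -0.13 in place of 0.46. Sums over the group are less exposed to such splitting. The classical genes summed to 1087, 569 and 858 CPM under WT and 751, 1476 and 861 under Ptpro-KO, and the non-classical genes to 483, 276 and 420 against 397, 746 and 408. In both sums the groups overlapped.

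Peptide transport, loading and trimming genes showed the same libraries at the extremes. Tapbp (chr17:33915899-33929292), the tapasin that bridges TAP and the empty heavy chain, was at 110, 71.5 and 80.3 CPM under WT and 121, 191 and 106 under Ptpro-KO. Its groups overlapped by 1 value, and its log2 fold change was 0.68 (SE 0.27, edgeR adjusted p = 0.197, unadjusted 0.0489). The transporter subunits overlapped more: Tap1 was at 68.5, 30.5 and 49.6 CPM against 46.6, 101 and 55.2, and Tap2 at 35.3, 12.3 and 29.1 against 31.9, 44.1 and 33.7. Their fold changes were 0.45 (SE 0.40) and 0.51 (SE 0.39), with adjusted p of 0.538 and 0.461. Erap1, the peptidase that trims peptides in the endoplasmic reticulum, varied least among the processing genes, at 53.9, 39 and 42.1 CPM against 52.3, 62.3 and 57.8 (0.35, SE 0.15, adjusted p = 0.222).

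The gene with the smallest p of the set was a subunit of the immunoproteasome, the form of the proteasome that favours class I peptides. Psmb10 (chr8:105935735-105938444), the interferon-induced beta2i subunit, was at 15.2, 9.25 and 12.1 CPM under WT and at 28.6, 22.4 and 23.7 under Ptpro-KO. All 3 libraries labelled Ptpro-KO lay above all 3 labelled WT, with means of 12.2 ± 2.99 and 24.9 ± 3.26 CPM (SD, n = 3). The log2 fold change was 1.03 (SE 0.22, 95% interval 0.49 to 1.57), or 2.04-fold, with an adjusted p of 0.0605 that missed the threshold. It passed in 4 of 17 alternatives: DESeq2, scaling by library totals and both fits to FPKM (adjusted p 0.000655 to 0.213 over all alternatives). Psmb8, beta5i, was at 29.5, 8.49 and 15.6 CPM against 29.1, 53.6 and 25.7 (1.02, SE 0.51, adjusted p = 0.282). Psmb9, beta1i, was at 13.4, 4.86 and 12 CPM against 12.3, 19.7 and 15.4 (0.65, SE 0.41, adjusted p = 0.384). For these last genes the groups overlapped at WT replicate 1.

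Each induced subunit takes the place of a constitutive one in the proteasome core. The constitutive subunits lay the other way, without passing the threshold in edgeR. Psmb5 averaged 79.2 CPM under WT and 60.5 under Ptpro-KO (log2 fold change -0.39, adjusted p = 0.0956), Psmb6 104 and 83.1 (-0.32, 0.116), and Psmb7 104 and 83.6 (-0.31, 0.174). In DESeq2, Psmb5 and Psmb6 passed as lower (adjusted p = 0.0198 and 0.0325), while scaling by library totals brought their changes to -0.24 and -0.18. As a ratio of RPKM, Psmb10 to Psmb7 was 0.13, 0.0766 and 0.116 under WT and 0.279, 0.252 and 0.284 under Ptpro-KO, a 2.58-fold difference of geometric means. Psmb8 to Psmb5 was 0.215, 0.0512 and 0.108 against 0.245, 0.48 and 0.232, or 2.84-fold. Psmb9 to Psmb6 was 0.0426, 0.0133 and 0.0412 against 0.0454, 0.0782 and 0.0638, or 2.14-fold. In all 3 ratios the groups did not overlap, although WT replicate 1 came close to the lowest Ptpro-KO library for Psmb8 and Psmb9, and in the deposited FPKM table Psmb8 to Psmb5 no longer reached the smallest p (exact permutation p = 0.2). An exact two-sided permutation test gave p = 0.1 for each, the smallest that 3 against 3 allows, and 0.1 after adjustment over the 3.

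**Figure D3:**
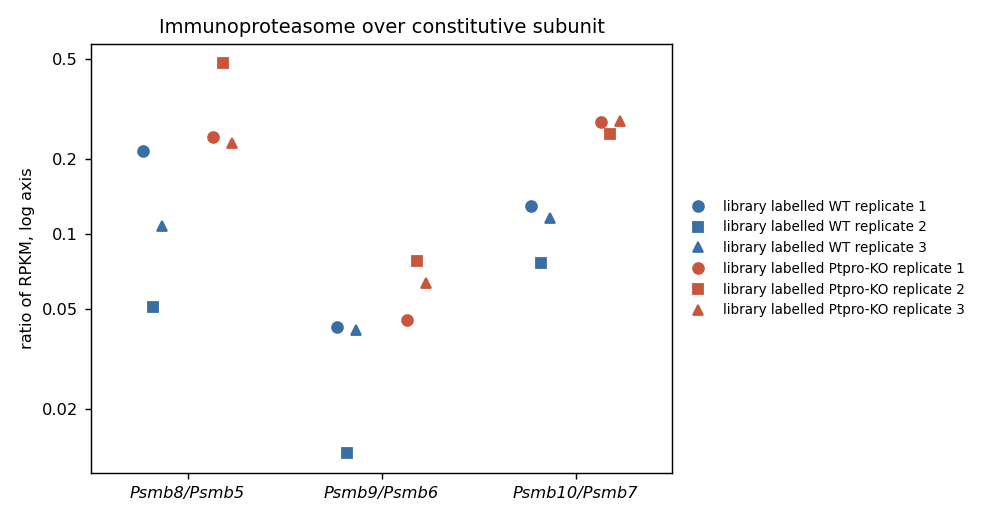
Ratio of each interferon-induced proteasome subunit to the constitutive subunit it replaces. The vertical axis is the ratio of RPKM values on a log scale and each symbol is 1 library. Psmb10 to Psmb7 is 0.0766 to 0.13 under the WT label and 0.252 to 0.284 under Ptpro-KO, the widest gap relative to the spread of the 3.

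The class II chains had another order of libraries. H2-Aa (chr17:34282744-34287823), the alpha chain of I-A, was at 140, 27.9 and 62.8 CPM under WT and 123, 80.5 and 126 under Ptpro-KO. The highest value came from WT replicate 1 and the lowest from WT replicate 2, a range of 5-fold that held the whole Ptpro-KO group. H2-Ab1 (chr17:34257689-34269419), its beta chain, likewise was highest in WT replicate 1 and lowest in WT replicate 2, at 109, 34.8 and 66.1 CPM against 101, 61.8 and 105. H2-Eb1 (chr17:34305867-34316674), the beta chain of I-E, was at 90.3, 21.2 and 48.1 CPM against 135, 45.3 and 84.6. C57BL/6 mice carry a defective I-E alpha gene, so this beta chain has no partner in them, and that gene, listed as H2-Ea-ps, had 0 reads in all 6 libraries. The fold changes were 0.51 for H2-Aa (SE 0.56, 95% interval -0.87 to 1.90, adjusted p = 0.619), 0.35 for H2-Ab1 (SE 0.43, 0.663) and 0.73 for H2-Eb1 (SE 0.61, 0.504). These values rested on single libraries: without WT replicate 1 they were 1.27, 0.81 and 1.34, and without WT replicate 2 they were 0.11, 0.02 and 0.34. Cd74, the invariant chain, was at 257, 55.2 and 115 CPM under WT and 270, 166 and 265 under Ptpro-KO (0.71, SE 0.55, adjusted p = 0.475). Its ratio to the summed class II chains in RPKM was 0.621 to 0.72 under WT and 0.717 to 0.841 under Ptpro-KO, overlapping at 1 library.

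The H2-DM genes, whose product swaps the invariant chain remnant for peptide, had no overlap between labels, as was the case for 16.8% of all genes in this direction. H2-DMa (chr17:34119541-34139101) was at 8.61, 2.67 and 4.59 CPM under WT and 17.2, 8.89 and 11.8 under Ptpro-KO. The log2 fold change was 1.25 (SE 0.48, 95% interval 0.07 to 2.43), and the edgeR adjusted p of 0.179 (0.0408 before adjustment) missed the threshold. H2-DMb1 was at 10.2, 3.31 and 7.72 CPM against 17.4, 11.4 and 13.3, and H2-DMb2 at 9.39, 4.42 and 8.72 against 16.7, 9.57 and 17.6. For all 3 the Ptpro-KO group lay above the WT group, narrowly so for H2-DMa and H2-DMb2, as it did for 6 of the 7 macrophage markers, whose part in these values was not tested. Their fold changes were 0.98 (SE 0.43, adjusted p = 0.225) and 0.96 (SE 0.37, adjusted p = 0.185). The beta genes share 27.2% and 31.3% of their 50-letter words with other genes, mostly each other. H2-DMa shares 0%. The ratio of H2-DMa to H2-Aa in RPKM was 0.0446, 0.069 and 0.0535 under WT and 0.102, 0.0801 and 0.0674 under Ptpro-KO, so these overlapped by 1 library.

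H2-DO, the inhibitor of H2-DM, is made mostly by B cells. H2-Ob had 27, 0 and 15 reads under WT and 109, 2 and 201 under Ptpro-KO, and H2-Oa had 7, 2 and 13 against 21, 5 and 57. Both were highest in Ptpro-KO replicates 1 and 3 and near the floor in replicate 2 of either label. For H2-Oa, however, Ptpro-KO replicate 1 lay close to WT replicate 3 (0.581 against 0.463 CPM). The fitted changes (2.63, SE 1.59, and 1.54, SE 0.99) had intervals that included 0. The 5 summed B cell markers were likewise highest in Ptpro-KO replicates 1 and 3. They were at 3.39, 2.27 and 1.6 CPM under WT and 15.6, 2.04 and 25.3 under Ptpro-KO, lowest in WT replicate 3. Of the 5 markers, 0 were at 0 in a whole group. Their part in the H2-DO values was not tested.

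The regulators went in opposite directions without passing the test. Nlrc5 (chr8:94434356-94527272) was at 114, 62.7 and 101 CPM under WT and at 48.8, 106 and 43 under Ptpro-KO, and it alone of the 37 had a negative fold change (-0.49, SE 0.41, 95% interval -1.49 to 0.51, adjusted p = 0.505). Its lows were Ptpro-KO replicates 1 and 3, and Ptpro-KO replicate 2 lay within the WT range. Ciita (chr16:10480059-10528418) was at 13.6, 3.27 and 5.87 CPM against 15.4, 7.69 and 18.3 (0.86, SE 0.59, adjusted p = 0.416), in an order close to that of the class II chains. A ratio of Nlrc5 to H2-K1 in RPKM, chosen after the values were seen and given without a test, was 0.0499, 0.057 and 0.0521 under WT and 0.0335, 0.0349 and 0.0228 under Ptpro-KO.

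Cd1d1, which shows lipids to NKT cells, was at 3.33, 5.78 and 6.59 CPM against 6.39, 8.66 and 4.32 (0.30, SE 0.37, adjusted p = 0.655). Of the 14 genes that were not tested, 7 had 0 reads in all libraries: H2-Pa, H2-Pb, H2-Q3, H2-M10.1, H2-M10.3, H2-M10.4 and H2-M10.6. A count of 0 allows up to 0.0703 to 0.12 CPM in a library (3 reads, counting error only). The H2-M10 genes are known from the vomeronasal organ. H2-M1, H2-M10.2, H2-M11, H2-M10.5, H2-M5 and H2-M9 had 2, 3, 3, 8, 39 and 48 reads in all 6 libraries together. H2-Eb2, a class II beta gene, had 9, 2 and 6 reads under WT and 25, 7 and 42 under Ptpro-KO.

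Summed over genes, the class II chains were at 339, 84.1 and 177 CPM under WT and 359, 188 and 316 under Ptpro-KO, and the accessory genes at 286, 65.7 and 137 against 325, 196 and 314. WT replicate 1 reached the Ptpro-KO range for the chains and the accessory genes alike. The macrophage markers, by contrast, were at 318, 75.7 and 129 CPM under WT and 1053, 813 and 549 under Ptpro-KO, without overlap. The class II chains per macrophage marker came to 1.07, 1.11 and 1.38 under WT and 0.341, 0.231 and 0.576 under Ptpro-KO. This ratio was chosen after the values were seen and was not tested. Dendritic cell markers (9 genes) summed to 29.9, 15.6 and 25.1 CPM against 80.3, 18.7 and 55.1, and T and NK cell markers (6 genes) to 8.5, 4.98 and 4.06 against 8.63, 4.46 and 7.04, with 0 genes at 0 in a whole group in either list. Both sums overlapped between labels. Itgax alone gave 62.1 and 39.4 CPM of the dendritic cell sum in Ptpro-KO replicates 1 and 3. Of the 9 dendritic cell genes, 5 had a positive and 4 a negative fold change. Groups were apart for 1 in each direction, Batf3 (1.66) and Cd207 (-2.15).

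**Figure D4:**
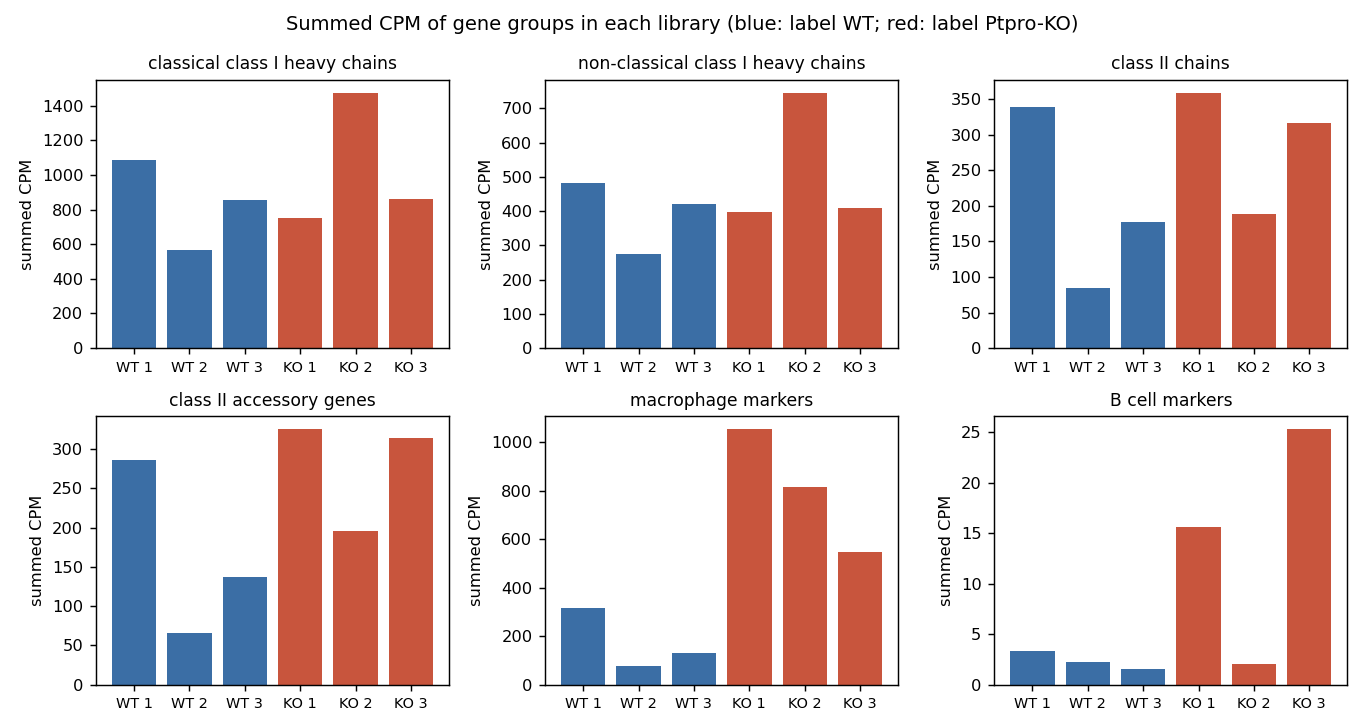
Summed CPM of 4 groups of antigen presentation genes and of macrophage and B cell markers. Each bar is 1 library, blue for the WT label and red for Ptpro-KO, and each panel has its own axis from 0. Class I sums peak in Ptpro-KO replicate 2 (1476 and 746 CPM), class II sums are similar in WT replicate 1 and Ptpro-KO replicates 1 and 3, and macrophage markers are higher in all 3 libraries labelled Ptpro-KO.

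Genes around the pathway were read from 7 lists of 52 genes, 47 of them tested, of which 2 passed as higher and 1 as lower. Both higher genes belonged to the interferon-gamma route. Ifngr1, the ligand-binding receptor chain, rose from 51.8 ± 14.6 to 112 ± 11 CPM (SD, n = 3; log2 fold change 1.11, SE 0.21, adjusted p = 0.0491). Jak2, the kinase bound to the partner receptor chain, rose from 87.5 ± 12.2 to 145 ± 8.91 CPM (0.73, SE 0.13, adjusted p = 0.0434). The call of Ifngr1 was lost in 8 of 17 alternatives, among them leaving out any library but WT replicate 1 (adjusted p 9.51e-05 to 0.195 over all alternatives). That of Jak2 was lost in 9 of 17, among them leaving out any single library (9.99e-05 to 0.17). Of the 9 tested genes of this list, 7 had all Ptpro-KO values above all WT values, against 16.8% of all genes, and the median fold change was 0.59 against 0.03. Irf1, a transcription factor that acts on class I promoters, was at 33.5, 26.9 and 25.5 CPM against 69.6, 119 and 54.1 (adjusted p = 0.059). Ifng itself had 3, 4 and 2 reads under WT and 10, 11 and 9 under Ptpro-KO. That was at most 0.277 CPM in any library, and Ifng was not tested.

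The gene that passed as lower was Creb1, one of the proteins that bind the X2 part of the X-Y module, which fell from 107 ± 4.5 to 73.5 ± 6.98 CPM (log2 fold change -0.54, SE 0.10, adjusted p = 0.0491). The call was lost in 14 of 17 alternatives, including each that left out a library (adjusted p 9.7e-05 to 0.231 over all alternatives). Of the other 6 X and Y box factors, 0 passed in edgeR, 1 (Nfyc, -0.27, adjusted p = 0.0379) passed as lower in DESeq2, and the list had a median of -0.11. The fold changes of the RFX subunits were -0.11 for Rfx5, -0.06 for Rfxap and 0.06 for Rfxank.

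The class II endosome list had 0 of 6 genes past the threshold, in edgeR, but all 6 were higher at an unadjusted p under 0.05, against 13.7% of all genes, and 4 passed as higher in DESeq2, against 9.52%. Its median fold change was 1.16, against 0.03 for all genes. Ctss, cathepsin S, the protease that cuts the invariant chain in antigen-presenting cells, was at 75.7, 19.3 and 32 CPM under WT and 301, 303 and 192 under Ptpro-KO (2.65, SE 0.54, adjusted p = 0.0566). It passed in 6 of 17 alternatives. March1, a ubiquitin ligase that removes class II from the surface, was at 7.07, 1.79 and 2.95 CPM against 21.6, 15.9 and 12.8 (2.08, SE 0.54, adjusted p = 0.0885). In both the groups were apart, as they were for the macrophage markers, while the class II chains overlapped. The part of macrophage content in these values was not tested.

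The other lists had 0 genes past the threshold in edgeR. The 7 endoplasmic reticulum partners had a median of 0.17, with Lnpep, a peptidase of cross-presentation, at 0.17 (adjusted p = 0.328) and Pdia6 at 0.67 (0.392). The 7 proteasome partners had a median of -0.32, with 5 genes lower and 1 higher without overlap between labels, against 15.7% and 16.8% of all genes. Of the MHC-like genes, 4 of 6 were tested, with Hfe at 0.45 (adjusted p = 0.189) and Procr at -0.99 (0.32). Of the receptors that read MHC molecules, 7 of 9 were tested. Cd8a was at 1.71, 0.917 and 1.39 CPM against 2.35, 3.1 and 2.93 (1.05, adjusted p = 0.107), and Pirb, a class I receptor of myeloid cells, at 16.7, 4.7 and 7.62 against 33.4, 26.6 and 23 (1.51, adjusted p = 0.125). The receptor list had a median fold change of 0.28, with 6 of 7 positive. Cd8b1 was at -0.00, Cd4 at 0.02 and Lag3 at 0.15. In DESeq2, Cd8a and Pirb passed as higher (adjusted p = 0.0263 and 0.0146). With that tool, 11 genes of the 7 lists passed as higher and 4 as lower, the lower ones being 2 proteasome partners and 2 X and Y box factors, against 9.52% and 8.36% of all genes.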

How the data were processed

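Total RNA of 6 tumours, 3 per label, was sequenced on an Illumina instrument. The submitters' processing notes name Bowtie 0.12.2 and the mm10 build. The sources used here do not give the counting tool, strand or read length. Each deposited file holds whole read counts per transcript and RPKM, which the authors scaled to transcript length and library total. A deposited gene table of FPKM values served as an alternative, and 2 further columns of it were not used. Counts were summed per symbol (41254 symbols from 100249 transcripts). March1, listed as a spreadsheet date, was taken by its transcript identifier. Genes passing filterByExpr (17664) were scaled by TMM and tested with edgeR 4.0.16 in R 4.3.3, with Benjamini-Hochberg adjustment over all of them. Every adjusted p comes from that fit unless another tool (DESeq2 1.42.0, limma 3.58.1) is named, and n is 3 per label. Alternatives were DESeq2, limma-voom, other scalings, other filters, limma on log2(FPKM + 1) and log2(FPKM + 0.1), a replicate block and leaving out each library. The genes and lists were chosen with earlier results of these data known, and so support nothing by themselves. Values per library are given for the 14 tested genes with the highest mean CPM, those with an unadjusted p under 0.05, the regulators and the chaperones. From each list the genes past the threshold are named, or else the 2 with the smallest p. Other named genes were chosen after their values were seen. The fit was tested on simulated counts. Libraries of a label were taken as separate mice, since the design text counts mice. Pairwise chi-square values per degree of freedom of 66.9 or more showed no library deposited more than once under the same label. Pairs across labels were not compared. The results of some list members and of 1 motif are not reported here.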

Additional observations from a re-analysis of the deposited data

How the results depend on the processing

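Of the 51 genes, 0 passed in edgeR, in limma-voom, with the replicate block, with each library left out in turn (0 to 0) and without both libraries numbered 1, a setting added after seeing the data. In DESeq2, with library totals as the only scaling, and with limma on log2(FPKM + 1) or log2(FPKM + 0.1), 1 gene passed as higher, Psmb10 (adjusted p 0.000655, 0.0361, 0.0427 and 0.0441). Library totals moved the median of all genes from 0.03 to 0.19. Over all genes, the 320 higher calls became 1681 in DESeq2, 630 with library totals, 133 with the replicate block, 0 to 253 with a library left out and 0 without both numbered 1, and the 405 lower calls became 1477 in DESeq2, 104 with the block, 0 to 243 with a library left out and 0 without both numbered 1. For the pathway lists, the 2 higher calls became 11 in DESeq2, 5 with library totals, 0 without a filter, 0 with the block, 0 without both numbered 1 and 0 to 2 with a library left out. Their 1 lower call became 4 in DESeq2 and 0 with limma-voom, upper-quartile factors, library totals, no filter, the block, either FPKM fit, both numbered 1 left out or any library left out. Ptpro passed in DESeq2 (3.98), limma-voom (4.53), library totals (4.15) and both FPKM fits (2.32 and 3.56). With 1 library, or both numbered 1, left out, log2 fold changes ran from -0.10 to 0.60 for B2m, -0.02 to 0.65 for H2-D1, -0.10 to 0.70 for H2-K1, -0.23 to 1.13 for H2-Q7 and -0.18 to 0.60 for H2-T22, and turned below 0 without Ptpro-KO replicate 2 or, for B2m and H2-T22, also without WT replicate 2 (-0.08 and -0.10). Without turning, they ran from 0.11 to 1.27 for H2-Aa, 0.02 to 0.81 for H2-Ab1, 0.26 to 1.34 for H2-Eb1, 0.32 to 1.45 for Cd74, 0.03 to 0.93 for Tap1, 0.04 to 0.48 for H2-Q4, 0.49 to 1.59 for Ciita and -1.02 to -0.17 for Nlrc5. Those of the proteasome ratios of Psmb8, Psmb9 and Psmb10, with 1 library left out, were 0.98 to 2.01, 0.54 to 1.38 and 1.14 to 1.52. H2-Q7 was -0.13 and -0.14 in the FPKM fits. The cause of these shifts was not tested. Of the same-numbered libraries, those numbered 1 deviated together (correlation 0.539) and the others did not (0.0802 and -0.243), so the replicate number was not taken to pair them. Differently numbered libraries ran from -0.614 (WT replicate 2 with Ptpro-KO replicate 1) to 0.408 (WT replicate 2 with Ptpro-KO replicate 3). The pair numbered 1, left out together above, shares a code prefix in the deposited names whose meaning the sources used here do not give. The biological coefficient of variation was 0.4 with 3 libraries per label, and 14 of the 51 genes had too few reads to be tested.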
